A study of Mus musculus with 13 samples.

Results

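The cytosolic ribosomal protein genes encode the proteins of the small (Rps) and large (Rpl and Rplp) subunits of the ribosome outside mitochondria. Members were taken as the protein-coding genes whose symbol is Rps or Rpl followed by a number, with or without a closing a, x, y or l, together with Rplp0 to Rplp2 and Rpsa. This symbol rule used no measured value and found 81 of 45777 genes in the table, of which 31 belong to the small and 50 to the large subunit. Fau, Rack1, Rps3a1 and the paralogs Rpl22l1, Rpl7l1, Rpl36al and Rps27rt lie outside the rule and are given with the related genes.

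RNA was sequenced from whole hippocampi of 13 mice, collected 3 days after injection. The SE-cKO mice (n = 3) were Nestin-Cre::Lin28aloxP/loxP animals in which pilocarpine, a muscarinic agonist, had induced status epilepticus (SE), a prolonged convulsive seizure. The SE-WT mice (n = 3) were Nestin-Cre::Lin28a+/+ animals treated in the same way. The sham-cKO (n = 4) and sham-WT (n = 3) mice had those genotypes and received saline. Pilocarpine was given at 260 mg/kg to males and 280 mg/kg to females, at 6 weeks of age, after scopolamine methyl nitrate and terbutaline, and SE was stopped with diazepam. Mice of all 4 groups carried Nestin-Cre, which acts in neural precursors and their progeny, and the background was C57BL/6N. Only mice that showed SE after pilocarpine entered the SE groups, and the sex of each mouse is not labelled. Xist, a female marker, had 12725 to 38319 counts in some libraries and 0 to 240 in the rest. Ddx3y, a Y-linked gene, had 0 to 41 counts in the former and 4446 to 7860 in the latter. High Xist marked replicate 3 of sham-cKO, replicate 2 of SE-WT, and replicates 2 and 3 of both SE-cKO and sham-WT. By these genes, sex was not balanced between the groups in any of the comparisons below. A fit with Xist level as a covariate is given in the closing section.

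The 13 libraries held 59659977 to 84354243 counts. Lin28a, the deleted gene, had 3 counts in SE-WT replicate 3 and 0 in every other library, so its level could not check the genotype labels. Levels are given as CPM, counts scaled to a common library size, after TMM normalization over all libraries. Changes are log2 fold changes with their SE from edgeR's quasi-likelihood test, and a gene was called at a Benjamini-Hochberg adjusted p under 0.05 over all genes tested. SE-cKO replicate 3 and SE-WT replicate 3 carry titles of another form than the rest, and they held the largest shares of mitochondrial rRNA (3.92% and 4.83%, against 0.486% to 1.66% elsewhere). Marker genes of striatal neurons stood high in SE-WT replicate 2, and those of thalamic neurons in sham-cKO replicate 2 and SE-WT replicate 3. Choroid plexus markers ranged most widely, with a summed level of 17.6 to 4491 CPM, and were highest in SE-cKO replicate 1 (1136 CPM), sham-cKO replicate 3 (2712 CPM) and sham-WT replicates 2 and 3 (1497 and 4491 CPM). Hippocampal granule cell markers were present in every library (summed level 296 to 740 CPM).

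Ribosomal proteins are made in near-equal numbers and assembled with rRNA in the nucleolus. In vertebrates most of their mRNAs begin with a run of pyrimidines, the 5′ terminal oligopyrimidine (TOP) tract, through which growth signalling by mTOR sets their translation. Their genes are transcribed strongly in nearly all cells, and MYC is a known activator of many of them. LIN28A, the RNA-binding protein deleted here, keeps let-7 microRNAs from maturing, and it also binds many mRNAs.

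The start regions of the members are shown first, since the pyrimidine tract is what most of these genes share at the sequence level. Promoters in the RefSeq table for GRCm38.p6, the build that mm10 denotes, run from 250 bases before to 50 bases after each annotated start, and 61 of the 81 members matched by symbol. Entries were not found for Rpl17, Rpl21, Rpl23a, Rpl29, Rpl3, Rpl30, Rpl32, Rpl36, Rpl7, Rpl8, Rplp1, Rps14, Rps20, Rps27a and Rps29, among others. The windows below hold, in capitals, the longest unbroken run of C and T on the gene's strand within 50 bases either side of the start, which need not begin at the start itself. The first 6 belong to members that were higher in SE-cKO than in sham-cKO hippocampi, and the last 2 to members near the lower end of that comparison.
Rplp0 (chr5:115559467-115559496, + strand): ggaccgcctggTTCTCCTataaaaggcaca
Rps2 (chr17:24720083-24720112, + strand): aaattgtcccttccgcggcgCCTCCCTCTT
Rps26 (chr10:128626484-128626513, - strand): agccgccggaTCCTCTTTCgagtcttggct
Rps27l (chr9:66946054-66946083, + strand): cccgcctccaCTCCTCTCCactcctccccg
Rpl18 (chr7:45718062-45718091, + strand): tcgcaggccgCTCTTTCCCCgcccactccg
Rpl35 (chr2:39005115-39005144, - strand): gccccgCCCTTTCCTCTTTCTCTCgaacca
Rpl37 (chr15:5116632-5116661, + strand): gcgggggtgCTTTCTCTTCCggtctctttg
Rpl9 (chr5:65391383-65391412, - strand): acgaaagacgTTCTCTCTTTgccccatcta

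A run of at least 8 pyrimidines was present in 52 of the 61 matched members (85.2%), against 39.3% of the 27025 genes with an entry. It was present in 17 of the 20 members with an entry that were called higher in SE-cKO against sham-cKO, and in 33 of the 38 tested members that were not called. The longest run was 18 bases in Rpl35 and 7 bases in Rplp0, which had the smallest adjusted p of all members, while Rpl9 and Rpl37 had runs of 10 and 11 bases. The letters CCGGAAG, a core recognized by ETS-family factors, were sought over the whole entry, from 250 bases before to 50 bases after the start. On either strand they occurred in 25 of the 61 members (41%), against 9.93% of all genes with an entry. They occurred in 12 of the 20 called and 12 of the 38 uncalled members. The runs and matches describe letters within the regions searched only, and no test was made on them.

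Of the 81 members, 77 had a mean of at least 1 CPM. Per length, Rpl41 and the stalk protein gene Rplp1 had the highest means (799 and 729 TPM over the 13 libraries), followed by Rps29 at 601 TPM. Rps15a, Rps27l and Rps20 were lowest among these 77, at 38.2, 39.6 and 50.2 TPM. The paralogs that are known mainly from testis or muscle were almost absent. Rpl10l had 0 counts in all 13 libraries. Rpl3l, the striated muscle paralog of Rpl3, had 21 counts in SE-cKO replicate 2, 6 in sham-cKO replicate 2, 24 in sham-WT replicate 2 and 0 elsewhere. Rpl39l, a paralog of the X-linked Rpl39, had 4, 18 and 4 counts in SE-cKO and 18, 20 and 6 in SE-WT libraries, against 13, 0, 0 and 0 in sham-cKO and 0 in each sham-WT library. Rpl32l lay at 0.121 to 0.802 CPM over the 13 libraries. The count filter removed Rpl3l and Rpl10l throughout. It removed Rpl39l except in SE-cKO against SE-WT and in the interaction given below, which left 78 tested members in the other comparisons.

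Summed over all members, ribosomal protein mRNA was highest in SE-cKO hippocampi. The sums were 16929, 18782 and 12747 CPM in SE-cKO and 14651, 17481 and 12722 CPM in SE-WT libraries. They were 12911, 13086, 12791 and 11189 CPM in sham-cKO and 15005, 13843 and 13559 CPM in sham-WT libraries. The group means were 16153 ± 3091 CPM in SE-cKO (SD, n = 3), 14951 ± 2394 CPM in SE-WT (SD, n = 3), 12494 ± 879 CPM in sham-cKO (SD, n = 4) and 14136 ± 766 CPM in sham-WT (SD, n = 3). The third replicate of each SE group, the library with the other title form, was low and overlapped the sham range. SE-WT replicate 1 (14651 CPM) also lay within the sham-WT range. In the TPM values that the authors deposited, which are scaled by length and library, the sums were 28412, 30394 and 24561 TPM in SE-cKO libraries, against 23299, 21114, 22932 and 20730 TPM in sham-cKO libraries. They were 24578, 25700 and 24599 TPM in SE-WT libraries, against 21425, 23650 and 21261 TPM in sham-WT libraries. On that scale every SE library stood above every sham library, and the shifts of all genes on it are given with the comparisons below.

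**Figure D1:**
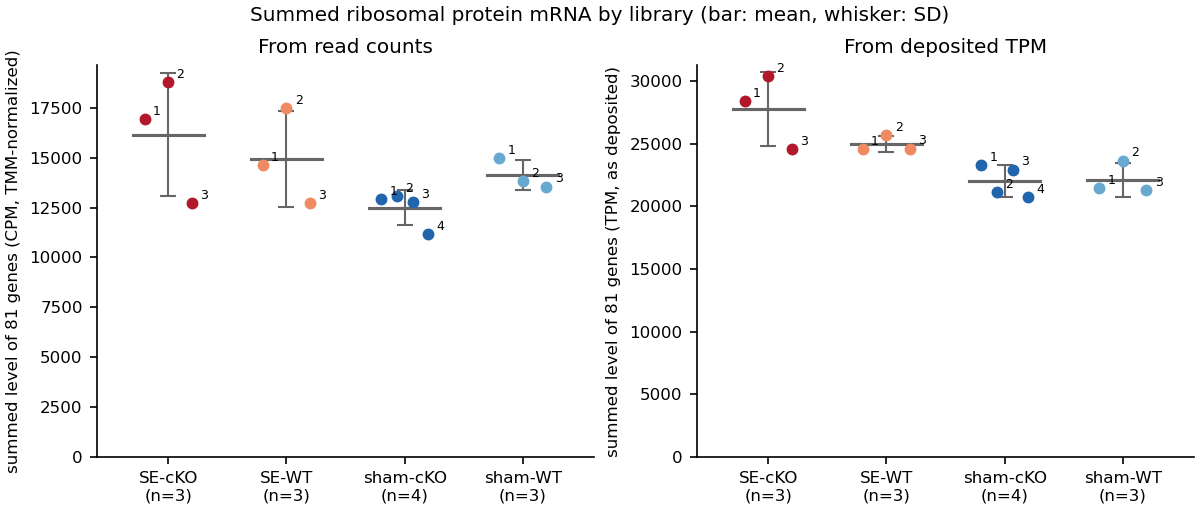
Summed level of the 81 cytosolic ribosomal protein genes in each library (points, with replicate numbers), with group mean (bar) and SD (whisker). The left panel gives TMM-normalized CPM and the right panel deposited TPM. In CPM the third replicates (12747 CPM in SE-cKO, 12722 CPM in SE-WT) lie within the range of the sham libraries. SE-WT replicate 1 also lies within the sham-WT range. In TPM all SE libraries (24561 to 30394) lie above all sham libraries (20730 to 23650).

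The members moved together across libraries. Over the 77 members, the median Pearson correlation between pairs of genes was 0.786 across the 13 libraries, and 60 members correlated above 0.8 with the median of the others. These libraries share depth, tissue makeup and treatment, so the correlations are descriptive. Rps16, a small-subunit protein gene, departed from the rest (r = -0.46). It measured 37.6, 34.8 and 89.0 CPM in SE-cKO and 59.7, 12.2 and 71.7 CPM in SE-WT libraries, against 31.3 to 46.9 CPM in sham-cKO and 44.1 to 53.9 CPM in sham-WT libraries. It was thus lowest in SE-WT replicate 2, where most members were high, and highest in SE-cKO replicate 3, where most were low. Its pseudogene Rps16-ps2 had 1.08 CPM in SE-WT replicate 2 and 6.74 CPM in SE-cKO replicate 3, its lowest and highest values. Of the 6 members with a correlation under 0.5, the next lowest were Rpl28 (0.11) and Rpl14 (0.28). The table lists 227 ribosomal protein pseudogenes, whose reads and those of the parent genes can be exchanged in counting, and they held up to 11.5% of the joint counts (Rpl15). The heat map of relative levels shows the shared pattern and the exception of Rps16.

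**Figure D2:**
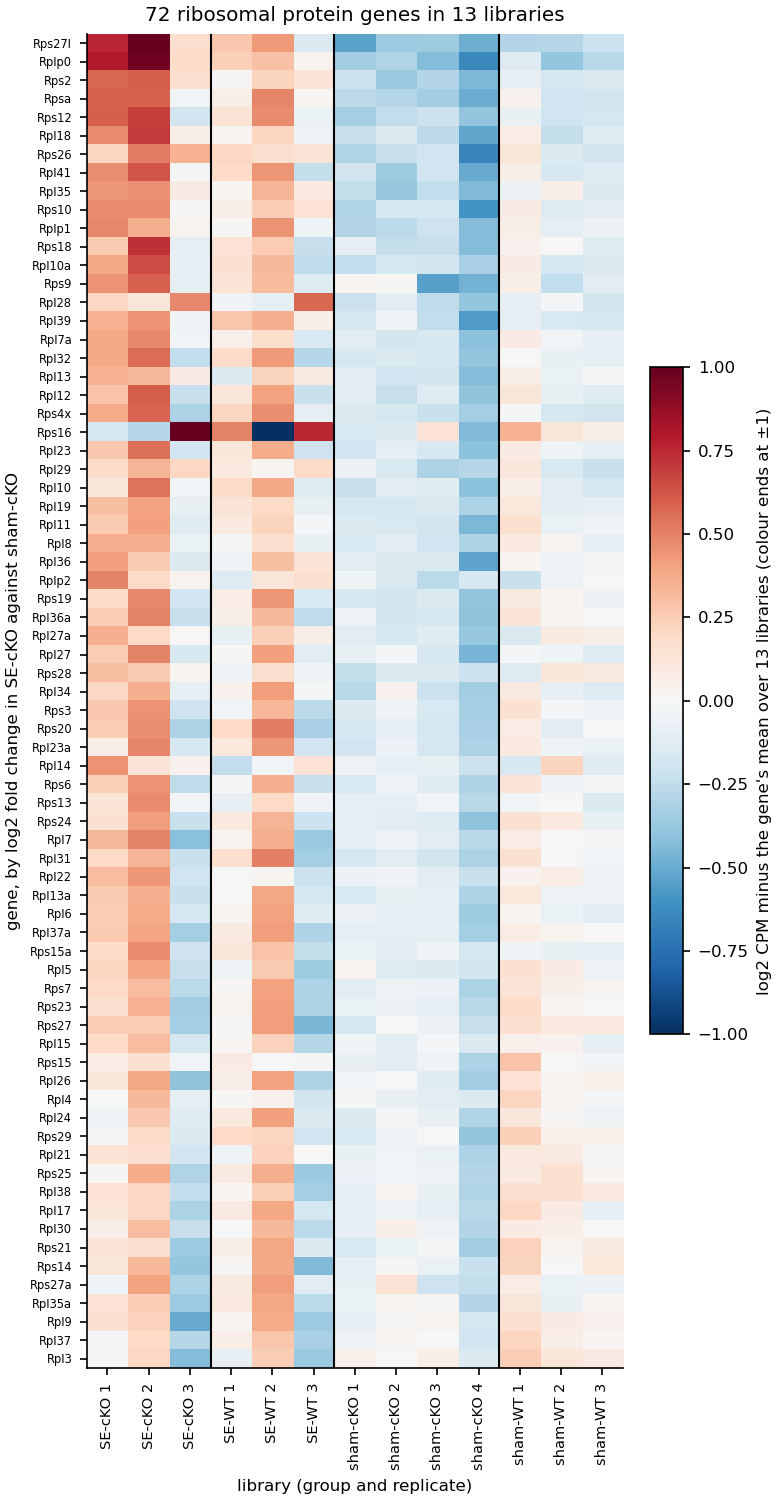
Log2 CPM of 72 members minus each gene's mean over the 13 libraries (colour, ends at ±1), with genes ordered by their log2 fold change in SE-cKO against sham-cKO. Most rows are high in SE-cKO replicates 1 and 2 and SE-WT replicate 2 and low in sham-cKO replicate 4, and the Rps16 row runs the other way in the SE libraries.

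In LIN28A-cKO mice, ribosomal protein mRNAs were higher after SE. In SE-cKO against sham-cKO hippocampi, 26 of 78 tested members rose (33.3%, where 13.8% of all 21307 genes tested rose), and none fell, where 8.92% of all genes did. At an unadjusted p under 0.05, 45 members were higher (57.7%, against 19.3% of all genes). The fold change was positive for 77 of 78 members (49.9% of all genes), with a median of 0.42 log2 units, against -0.00059 over all genes. The exception was Rpl32l (-0.47), which lay under 1 CPM in every library. The calls comprised 10 of 31 small-subunit members (median 0.41) and 16 of 47 large-subunit members (median 0.44). In 30 members (38.5%) all SE-cKO libraries lay above all sham-cKO libraries, as they did for 17.9% of all genes.

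The largest changes were in Rps27l and Rplp0. Rps27l, a paralog of Rps27 known as a p53 target, had 24.9, 30.3 and 16.6 CPM in SE-cKO libraries, against 10.2, 11.4, 11.5 and 10.5 CPM in sham-cKO libraries. It was 2.28-fold higher (log2 1.19 ± 0.21 SE, edgeR adjusted p = 0.0043), with no overlap. Its parent Rps27 measured 147, 147 and 97.3 CPM in SE-cKO and 105 to 122.9 CPM in sham-cKO libraries, which overlapped, and was not called (adjusted p = 0.336). Rplp0, the base of the ribosomal stalk that recruits translation factors, had 477, 539 and 312 CPM in SE-cKO libraries, against 216, 223, 204 and 176 CPM in sham-cKO libraries. It rose 2.24-fold (log2 1.17 ± 0.19 SE, adjusted p = 0.0034), again with no overlap.

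Rps2, which lies near the mRNA entry channel, had 456, 466 and 343 CPM in SE-cKO libraries, against 264, 237, 251 and 225 CPM in sham-cKO libraries (log2 0.84 ± 0.14 SE, adjusted p = 0.0036). Rps26, which lies by the mRNA exit, had 81.3, 100.1 and 89.1 CPM, against 56.8, 60.0, 60.9 and 44.4 CPM in sham-cKO libraries (log2 0.75 ± 0.14 SE, adjusted p = 0.0058). In Rps2 and Rps26 the groups did not overlap. Rpsa, also known as the laminin receptor precursor, had 585, 584 and 381 CPM, against 276 to 323 CPM in sham-cKO libraries (log2 0.81, adjusted p = 0.010). Rps12 had 260.0, 278 and 151 CPM, against 131 to 148 CPM in sham-cKO libraries (log2 0.77, adjusted p = 0.028). The large-subunit gene Rpl18 had 149, 175 and 113 CPM, against 75.2 to 97.8 CPM in sham-cKO libraries (log2 0.77, adjusted p = 0.012). Rpl41, the shortest ribosomal protein, had 367, 413 and 264 CPM, against 187 to 234 CPM in sham-cKO libraries (log2 0.74, adjusted p = 0.014). In all 4, SE-cKO replicate 3 was the lowest SE-cKO library and still lay above the sham-cKO range.

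At the other end of the range, Rpl3, a protein near the peptidyl transferase centre, had 564, 643 and 413 CPM in SE-cKO libraries, against 579, 557, 583 and 507 CPM in sham-cKO libraries (log2 0.01 ± 0.16 SE). Rpl37 (0.08) and Rpl9 (0.10) were the next lowest among members above 1 CPM, and in all 3 the SE-cKO libraries spanned the sham-cKO range. Of the X-linked members, Rpl39 had 77.9, 83.6 and 59.5 CPM, against 54.2, 59.9, 51.8 and 41.4 CPM in sham-cKO libraries, and was called (log2 0.56, adjusted p = 0.045). Rpl10 (0.49), Rps4x (0.53) and Rpl36a (0.45) did not pass the test (adjusted p = 0.056 to 0.108). Of the most abundant members per length, Rplp1 rose (log2 0.65, adjusted p = 0.010) and Rps29 was not called (0.21, adjusted p = 0.309). Of the least abundant, Rps15a (0.32) and Rps20 (0.41) were not called (adjusted p = 0.192 and 0.146).

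The number of calls depended on single libraries. It was 62 without SE-cKO replicate 3, 15 without SE-cKO replicate 1 and 12 without SE-cKO replicate 2, and 14, 15 and 14 without sham-cKO replicates 1, 3 and 4. Rps27l, Rplp0, Rps2 and Rps26 were called in all 18 fits, main and alternative. Among members named above, Rps12 and Rpl39 lost the call when SE-cKO replicate 1 or 2 or sham-cKO replicate 1, 3 or 4 was left out (log2 0.61 to 0.80, adjusted p = 0.052 to 0.105, for Rps12, and 0.44 to 0.56, adjusted p = 0.090 to 0.148, for Rpl39). Rpl41 lost it without SE-cKO replicate 2 (0.61, adjusted p = 0.055). Without SE-cKO replicate 3, Rpl10 (0.64), Rps4x (0.78), Rpl36a (0.66), Rps15a (0.52) and Rps20 (0.63) were called as well.

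In wild-type mice the same comparison called no member. In SE-WT against sham-WT hippocampi, 0 of 78 tested members passed the edgeR test in either direction, where 4.57% of all genes rose and 0.832% fell, and 3 members were higher and 0 lower at an unadjusted p under 0.05 (12.9% and 7.92% of all genes). DESeq2 and limma-voom each called 1 member, Rplp0. The fold change was positive for 57 of 78 members (51.3% of all genes) and negative for 21 (48.7%), with a median of 0.09 log2 units, against 0.02 over all genes. Leaving out SE-WT replicate 2 turned this median to -0.03, and it was 0.19 when the third SE-WT library was left out. In 6 members (7.69%, against 16% of all genes) all SE-WT libraries lay above all sham-WT libraries. In TPM this held for 29 of 78 members (37.2%, against 17.3% of all genes), with 0 members separated the other way (5.66% of all genes), and for 40 of 78 (51.3%, against 17.3%) in SE-cKO against sham-cKO. On the log2(TPM + 1) scale the median of all genes moved by 0.07 in SE-WT against sham-WT, and the median member lay 0.11 above it. In SE-cKO against sham-cKO these values were -0.03 and 0.39.

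The largest values were those of Rps27l and Rplp0. Rps27l had 17.7, 19.8 and 13.3 CPM in SE-WT libraries, against 12.02, 12.1 and 12.7 CPM in sham-WT libraries (log2 0.46 ± 0.18 SE, adjusted p = 0.210). Rplp0 had 325, 337 and 282 CPM, against 252, 210.1 and 227 CPM in sham-WT libraries (0.45 ± 0.13 SE, adjusted p = 0.110). Rpl39 had 74.5, 78.8 and 63.7 CPM, against 57.6, 55.1 and 54.1 CPM in sham-WT libraries (0.38 ± 0.13 SE, adjusted p = 0.145). None of these 3 overlapped between the groups, but none was called. Without SE-WT replicate 3, Rps27l (0.63, adjusted p = 0.049) and Rpl39 (0.48, adjusted p = 0.042) passed the test. Rps12 (0.35), Rps4x (0.33), Rpsa (0.32) and Rpl28 (0.27) followed. The lowest values were -0.20 for Rpl3 and -0.12 for Rpl4, a large-subunit protein that lines the exit tunnel, and those of Rpl38, Rps27, Rps14, Rpl22, Rpl5 and Rps15 lay between -0.15 and -0.08. The plot of the genotypes' responses sets these values against those of LIN28A-cKO mice, and the plot of 6 members gives the libraries behind them.

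**Figure D3:**
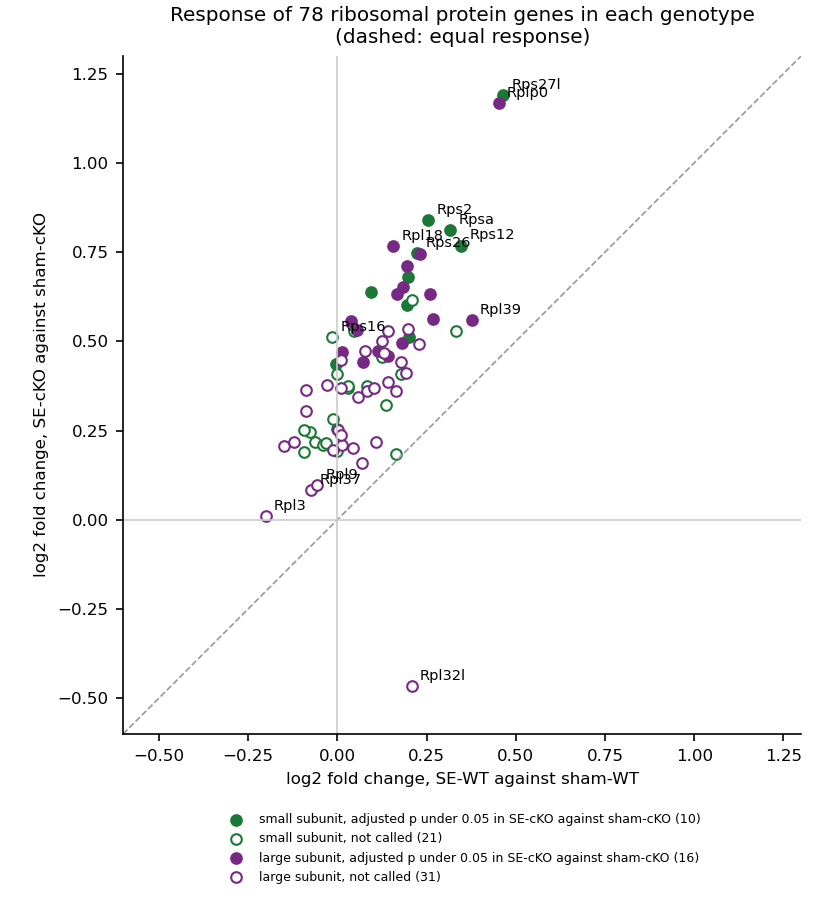
Log2 fold change of each of 78 members in SE-cKO against sham-cKO (vertical axis) and in SE-WT against sham-WT (horizontal axis), coloured by subunit, with members at an adjusted p under 0.05 on the vertical axis filled (26). Rps27l and Rplp0 lead on both axes (1.19 and 1.17, with 0.46 and 0.45), and nearly all points lie above the dashed line of equal response.

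**Figure D4:**
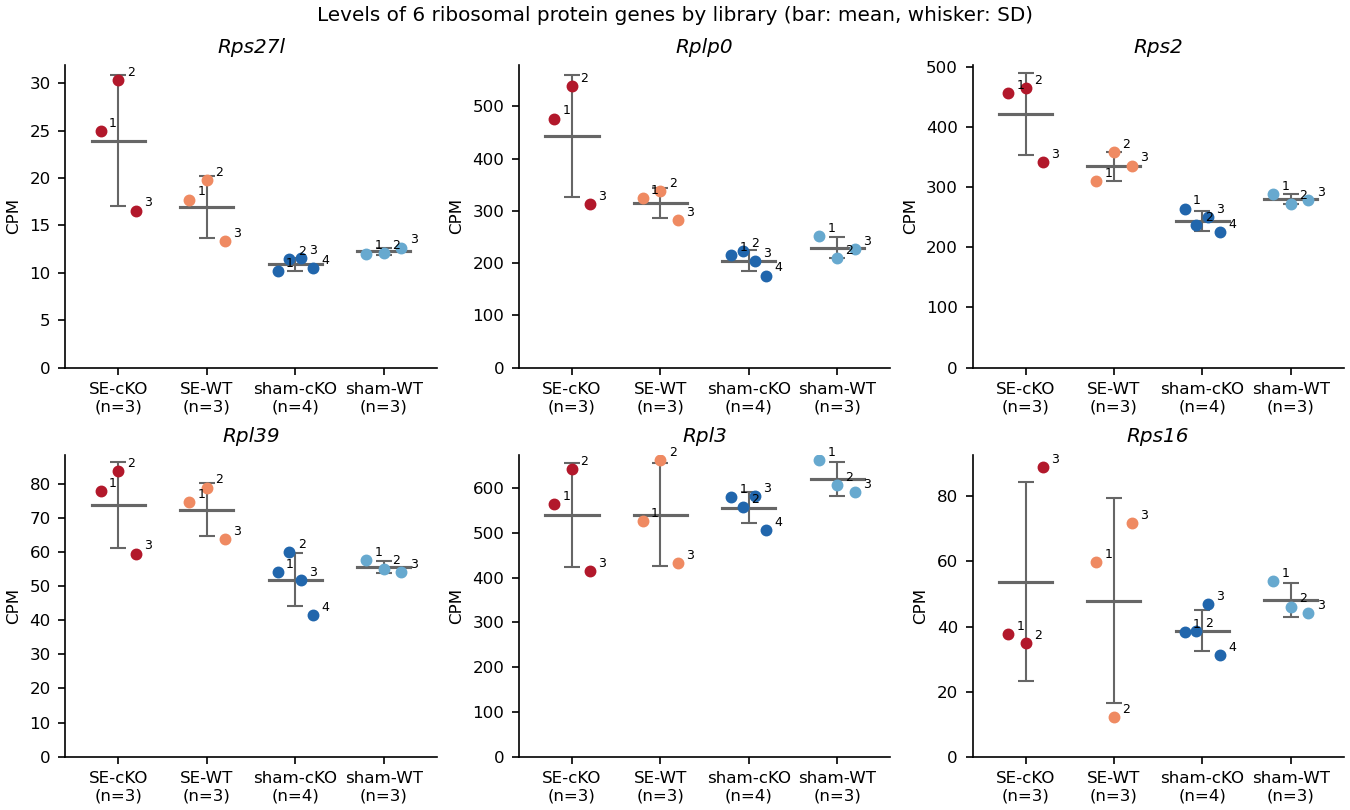
CPM of 6 members in each library (points, with replicate numbers), with group mean (bar) and SD (whisker). Rps27l, Rplp0 and Rps2 lie higher in all SE-cKO libraries than in all sham-cKO libraries, Rpl39 nearly so, in Rpl3 each SE group overlaps both sham groups while sham-cKO (at most 583 CPM) lies below sham-WT (at least 591 CPM), and Rps16 ranges from 12.2 to 89.0 CPM among the SE libraries.

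After SE, no member passed the test between the genotypes. In SE-cKO against SE-WT hippocampi, 0 of 79 tested members passed the edgeR or DESeq2 test, none had an unadjusted p under 0.05 (5.42% of all genes were higher and 4.27% lower), and 0% of all 21126 genes were called in either direction. The fold change was positive for 67 of 79 members (50.1% of all genes), with a median of 0.12 log2 units, against 0.0008 over all genes. That median was -0.00861 without SE-cKO replicate 2, and leaving out the third SE-WT library gave -0.00138. The largest values were those of Rps27l (0.52 ± 0.27 SE), Rplp0 (0.51 ± 0.23 SE), Rpl18 (0.39), Rps2 (0.35), Rpl22 and Rps18 (0.29 each), Rpl7a (0.28) and Rpl14 (0.27), with adjusted p of at least 0.531. In 2 members (2.53%, against 7.65% of all genes) the SE-cKO libraries all lay above the SE-WT libraries, and in 0 (7.39% of all genes) all lay below. In TPM, 7 members were so separated upwards (8.15% of all genes) and 0 downwards (5.04%). Among members with a mean of at least 1 CPM, the 8 lowest lay between -0.11 and -0.03. They were Rps21, Rps27a, Rpl24, Rpl17, Rps29, Rpl35a, Rpl9 and Rpl37. The lowest value over all tested members was -0.89, in a member with a mean under 1 CPM.

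Without SE, no member passed the test between the genotypes, and in CPM nearly all had lower means in LIN28A-cKO mice. In sham-cKO against sham-WT hippocampi, 0 of 78 tested members passed the edgeR or DESeq2 test, where 0% of all genes did, and 16 members were lower at an unadjusted p under 0.05 (20.5%, against 1.73% of all genes) and 0 higher (3.81%). The fold change was negative for 77 of 78 members (48.5% of all genes), with a median of -0.16 log2 units, against 0.01 over all genes. In 42 members (53.8%, against 4.02% of all genes) all sham-cKO libraries lay below all sham-WT libraries, and in 0 (3.69%) all lay above. Rps16 (-0.30), Rpl35 (-0.27), Rps26 and Rplp1 (-0.26 each), Rps21 (-0.25), Rps29 (-0.24), Rps10 and Rpl11 had the lowest values. Rpl35 had 93.0, 84.2, 92.4 and 80.7 CPM in sham-cKO libraries, against 105, 115 and 99.8 CPM in sham-WT libraries. In TPM this separation was not seen. The number of members with all sham-cKO libraries below all sham-WT libraries was then 0 (0.693% of all genes), as was the number with all above (8.79%), and the summed level was 0.996 of that in sham-WT, against 0.884 in CPM. The TPM scale itself moved the median of all genes by 0.11 in this comparison (on the log2(TPM + 1) scale), and relative to that shift the median member lay 0.11 lower in sham-cKO.

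The difference between the genotypes in the response to SE was tested directly as an interaction. No member of 79 passed the test by edgeR (0.0841% of all 22596 genes were positive and 0.0752% negative), and DESeq2 called Rps2 only. At an unadjusted p under 0.05, 13 members were positive (16.5%, against 6.21% of all genes) and 0 were negative (6.33%). The term was positive for 77 of 79 members (51.9% of all genes) and negative for 2 (48.1%), with a median of 0.34 log2 units, against 0.03 over all genes. It was largest in Rps27l (0.73 ± 0.28 SE), Rplp0 (0.72 ± 0.25 SE), Rpl18 (0.61), Rps2 (0.59), Rps18 (0.55), Rps26 (0.53), Rps16 (0.52) and Rpl7a (0.52), with adjusted p of 0.1975 for Rps2 and higher for the rest. The value of Rps16 was -0.08 without SE-cKO replicate 3. Both parts described above, the higher SE-cKO and the lower sham-cKO levels, enter this term.

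Genes that build or use the ribosome were compared in the same fits. The share of genes that rose in SE-cKO against sham-cKO was above that of all genes (13.8%) among the TOP mRNAs, and below it among the biogenesis, RNA polymerase I, initiation, growth signalling, mitochondrial ribosomal and oxidative phosphorylation lists, so the members of these named below are values of single genes. The share that fell was above that of all genes (8.92%) in the growth signalling list only. In SE-cKO against sham-cKO, several ribosomal protein genes outside the symbol rule rose. Rack1, a scaffold on the small subunit, was higher (log2 0.81 ± 0.18 SE, adjusted p = 0.014), as did Fau, which encodes Rps30 fused to a ubiquitin-like protein (0.45, adjusted p = 0.022), and the paralog Rpl36al (0.53, adjusted p = 0.032). Rps3a1 (0.19) was not called, and neither were Rpl22l1, Rpl7l1 and Rps27rt. Mean levels in SE-cKO and sham-cKO were 41.2 and 52.7 CPM for Rpl22l1 and 51.1 and 46.7 CPM for Rpl7l1. Those of Rps27rt were 0.524 and 0.664 CPM. Of 14 genes for elongation factors and other TOP mRNAs, 4 rose and 0 fell (median 0.38). They were Vim (5.76), Pabpc1 (0.83), Tpt1 (0.79) and Hnrnpa1 (0.59), of which Vim is also a marker of reactive astrocytes.

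Of 51 ribosome biogenesis factors, 4 rose and 1 fell (median 0.14). Ddx21, a nucleolar helicase, rose by 0.86 ± 0.14 log2 units (SE, adjusted p = 0.0037), Fbl, the rRNA methyltransferase fibrillarin, by 0.81 (adjusted p = 0.021), and Eif6, which keeps the subunits apart, by 0.57 (adjusted p = 0.0043). Of 15 genes of RNA polymerase I and its factors, 1 rose (Taf1d, 0.85) and 1 fell (Rrn3, -0.33). Of 37 initiation factors, 2 rose and 3 fell, among them Eif4a2 (-0.62). Of 18 growth signalling genes, 2 rose and 4 fell (13.8% and 8.92% of all genes). Eif4ebp1, the translation repressor that mTOR inactivates, rose by 2.50 ± 0.28 log2 units (SE, adjusted p = 0.0005) and Myc by 2.07 ± 0.39 (SE, adjusted p = 0.0060), while Mtor (-0.56) and Pdcd4 (-0.60) fell. Of 78 mitochondrial ribosomal protein genes, 3 rose and 2 fell, with a median of 0.00004. Of 76 nuclear oxidative phosphorylation subunits, 0 rose and 5 fell, with a median of -0.22.

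In SE-WT against sham-WT, these lists held few calls. Vim (4.50, adjusted p = 0.0004) and Eif4ebp1 (1.64, adjusted p = 0.048) rose, and none of the biogenesis, RNA polymerase I or initiation genes passed the test. Of 78 mitochondrial ribosomal protein genes 1 rose, and of 76 nuclear oxidative phosphorylation subunits 1 fell. Of all genes, 4.57% rose and 0.832% fell. The medians were 0.04 for the TOP mRNAs, -0.08 for the biogenesis factors and -0.21 for the mitochondrial ribosomal proteins. The medians by list are plotted for the responses of the genotypes.

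**Figure D5:**
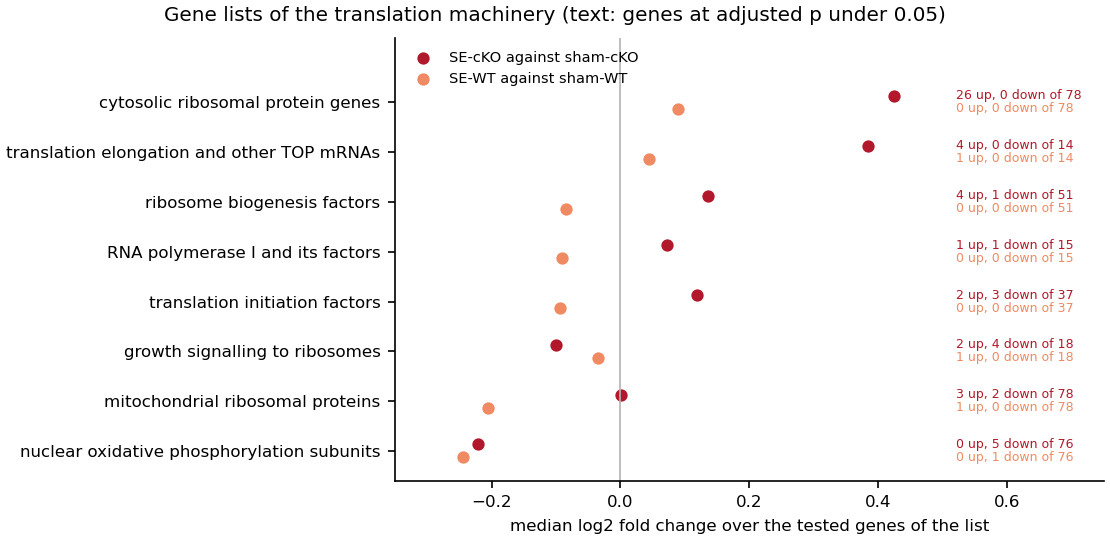
Median log2 fold change over the tested genes of each list in SE-cKO against sham-cKO (red points) and SE-WT against sham-WT (orange points), with the number of genes up and down at an adjusted p under 0.05 beside them. The cytosolic ribosomal protein genes had the highest median in SE-cKO against sham-cKO (0.42) of the lists shown, followed by the TOP mRNAs (0.38), while the mitochondrial ribosomal proteins were at 0.00004.

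Marker genes of microglia, reactive astrocytes and proliferating cells rose in the SE groups. In SE-cKO against sham-cKO, all 16 microglial, 14 of 14 reactive astrocyte and 20 of 20 proliferation markers rose, with summed levels of 2265 to 3543, 7305 to 8530 and 447.6 to 1024 CPM in SE-cKO libraries, against 511 to 558, 391 to 471 and 121 to 125 CPM in sham-cKO libraries. In SE-WT against sham-WT, 16 of 16, 11 of 14 and 16 of 20 rose, with 1929 to 2615, 4045 to 4474 and 352 to 439 CPM in SE-WT libraries, against 523 to 580, 415 to 476 and 135 to 136 CPM in sham-WT libraries. Of 12 neuronal markers, 3 fell in SE-cKO (summed level 3662 to 5332 CPM, against 6037 to 7156 CPM in sham-cKO), and none passed the test in SE-WT against sham-WT. Of 11 markers of CA pyramidal cells, 7 fell in SE-cKO (summed level 224 to 269 CPM, against 466 to 661 CPM in sham-cKO) and 1 in SE-WT (181 to 446.4 CPM, against 538 to 668 CPM in sham-WT). Of 10 granule cell markers, 5 fell in SE-cKO (415 to 519 CPM, against 569 to 740.1 CPM in sham-cKO) and 3 in SE-WT (296 to 473 CPM, against 571 to 698 CPM in sham-WT). Of 5 tested markers of blood leukocytes, 4 rose in SE-cKO (17.7 to 56.0 CPM, against 1.71 to 3.86 CPM in sham-cKO) and 0 in SE-WT (3.17 to 20.7 CPM, against 1.36 to 4.14 CPM in sham-WT). In whole tissue, a change in the number of cells of a type and a change in RNA per cell cannot be told apart, and the part of these markers in the members' levels was not tested. With the 3 libraries that stood high in genes of striatum or thalamus left out, 32 members were called in SE-cKO against sham-cKO.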

How the data were processed

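Hippocampal total RNA libraries (TruSeq stranded) were trimmed with Trimmomatic, aligned to mm10 with HISAT2 2.1.0 and quantified with StringTie 2.1.3b by the authors, after bcl2fastq 2.20.0 base calling. The deposited gene table holds read counts, TPM and FPKM per library. The authors' counts are unscaled, the authors' TPM are scaled by length and library, and FPKM were not used here. Whether counting used strand is not given in the sources used here.

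Counts were fitted with edgeR 4.0.16 in R 4.3.3 (filterByExpr minimum count 10 and total 15, TMM, robust quasi-likelihood), on the libraries of each comparison, and on all 13 for the interaction, with Benjamini-Hochberg adjustment over all genes. Alternatives used DESeq2 1.42.0, limma 3.58.1 and the settings named in the closing section. TPM served for levels between genes and for overlap of groups. The groups came from the genotype and treatment labels, and replicates are labelled as biological. The members, lists and added alternatives were chosen with earlier results of these data known. Named by rule were, per comparison, the 8 members with the largest positive and the 8 with the largest negative fold change at a mean of at least 1 CPM, paralogs ending in l with their parents, X-linked members, the 3 highest and 3 lowest in TPM, members left out by the filter, and up to 4 tested genes per related list. Rpl37 and Rpl9 in SE-cKO against sham-cKO, Rpl15 and the members of low correlation were named after their values were seen. The fits were tested on simulated data. Symbols were as deposited, and 99.8% of the gene IDs matched RefSeq. Some genes entered all fits and counts but are not reported here by name, and the heat map and the search for outlying libraries leave them out.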

Additional observations from a re-analysis of the deposited data

Results flagged for a closer look

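In the only group of 4 libraries, sham-cKO, the gap of the lowest or highest library to the others was set against the range for the summed level and for each of 72 members (Dixon's test, 95% critical value for 4 libraries, with about 1 flag in 20 groups by chance). It set apart 10 of 73 values, all of them low values of sham-cKO replicate 4, and since the members move together these are not 10 separate observations. The summed level was 1.12e+04 CPM in that library, against 12791 to 13086 CPM in the other sham-cKO libraries. The members set apart there were Rpl11 (113 CPM), Rpl19 (208 CPM), Rpl32 (104 CPM), Rpl36 (43.5 CPM), Rpl37a (116 CPM), Rpl6 (213 CPM), Rps19 (98.4 CPM), Rps24 (222 CPM) and Rps25 (152 CPM). Without this library, 14 members in place of 26 were called in SE-cKO against sham-cKO, and the ratio of the summed level in sham-cKO against sham-WT was 0.915 in place of 0.884.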

How the results depend on the processing

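The correlations of deviations between same-numbered replicates were -0.155 to 0.126 in SE-cKO against sham-cKO, 0.0486 to 0.304 in SE-WT against sham-WT, -0.026 to 0.219 in SE-cKO against SE-WT and -0.0271 to 0.445 in sham-cKO against sham-WT. At least 1 pair in each lay under 0.1, so the numbers were not taken as pairs. With the replicate block, 4 members in place of 26 were called higher in SE-cKO against sham-cKO, and no member was called in the other comparisons. Rpsa, Rps12, Rpl18, Rpl41, Rpl35, Rpl39, Rplp1 and Rps10 were among those not called with the block (adjusted p = 0.0534 to 0.128). The counts in SE-cKO against sham-cKO were 37 (DESeq2), 69 (title form as a term) and 12 to 62 with single libraries left out. Under the 7 remaining settings they were 21 to 35. RLE size factors in place of TMM gave 27, no count filter 21, all 4 groups in one fit 34 and limma-voom 35. Xist level as a covariate gave 32, and leaving out mitochondrial and small RNA genes gave 27. Leaving out the 3 libraries high in genes of striatum or thalamus gave 32. In SE-WT against sham-WT, DESeq2 and limma-voom called 1 member each and the title term 8, with 0 to 2 on leaving out libraries. In the interaction DESeq2 called 1, and so did a fit that left out the third SE-cKO and SE-WT libraries, chosen after seeing the data. The summed level in sham-cKO against sham-WT was 0.996 in TPM. Rpl3 in SE-cKO against sham-cKO changed sign with no count filter (-0.0142), with the block (-0.0609), without the 3 libraries high in genes of striatum or thalamus (-0.00833), without mitochondrial and small RNA genes (-0.0171) and on leaving out single libraries (-0.132 to 0.207). On leaving out single libraries, Rpl37 ranged from -0.0384 to 0.239, Rpl9 from -0.0337 to 0.331 and Rps16 from -0.00734 to 0.744 in that comparison, and Rps16 from -0.0786 to 0.911 in the interaction. The 14 members given only by range changed sign in at least 1 setting. Medians kept their sign in every setting except where the report says otherwise. The causes were not tested.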
